A study of Mus musculus with 18 samples.

Results

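Adrenomedullin, encoded by Adm, is a secreted peptide of the calcitonin family. Its receptor is made of the G protein-coupled receptor CALCRL and a receptor activity-modifying protein (RAMP), encoded by Ramp2 or Ramp3. Ramp1 encodes another RAMP that pairs with CALCRL. These 5 genes were taken by symbol from 23238 gene symbols counted in 18 mouse libraries, and all 5 had reads in each of the 4 groups. The libraries came from cells sorted by flow cytometry from the small intestine of adult C57BL/6J mice. The cells were PDGFRβ+ stromal cells (IntSCs) and endothelial cells (LECs) of lacteals, which are the lymphatics inside each villus. Both were taken from WT mice, with the genotype label PDGFRb+-CreERT2-Tomato+, and from LATS1/2 KO mice, which in addition carried floxed alleles labelled Lats1f/f and Lats2 f/f. There were 6 WT IntSC, 5 KO IntSC, 4 WT LEC and 3 KO LEC libraries. According to the labels all groups carried the tamoxifen-inducible Cre under the Pdgfrb promoter and the tdTomato reporter. Pdgfrb itself was at 484 ± 164 CPM (SD) in WT IntSC, 878 ± 187 in KO IntSC, 28.3 ± 29.5 in WT LEC and 10.6 ± 10.2 in KO LEC. Lats1 and Lats2 encode Hippo pathway kinases, which hold back YAP and TAZ, the co-activators of TEAD factors. The study's legends give numbers of mice equal to these numbers of libraries, and the mice came from several independent experiments. Neither they nor the labels tie a library to a mouse or an experiment, so no experiment could enter a fit, and whether IntSC and LEC libraries shared mice was not given.

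CALCRL does not reach the cell surface efficiently without a RAMP, and the RAMP sets which peptide the complex prefers. With RAMP2 or RAMP3 it is an adrenomedullin receptor, and with RAMP1 it is the receptor for calcitonin gene-related peptide (CGRP). In lymphatic endothelium, adrenomedullin acting through CALCRL and RAMP2 is known to promote growth of the vessels and to tighten their junctions, and the signal runs mainly through the stimulatory G protein and cyclic AMP.

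Levels are given as CPM, the reads of a gene per 1000000 reads after TMM scaling over all libraries. Differences are log2 fold changes with their SE from edgeR's quasi-likelihood fit of the groups compared, and a gene passed at an adjusted p under 0.05 over all genes tested (Benjamini-Hochberg). The libraries held 5361250 to 10549233 reads, so that 3 reads stood for 0.284 to 0.560 CPM. Such floors cover counting error only. The reads come from the 3′ end of a transcript, and no length was divided out.

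The sorted cells carried the markers of their labels. The summed level of 10 LEC markers was 8672 to 14683 CPM in the LEC libraries and 240 to 489 CPM in the IntSC libraries, and that of 9 stromal markers was 7690 to 17229 CPM in IntSCs and 304 to 2103 CPM in LECs, with WT LEC 1 the highest LEC library. Lats1 was 16.0 ± 3.28 CPM (SD) in KO IntSC and 17.5 ± 10.3 CPM in WT IntSC, and Lats2 was 114 ± 20.3 and 72.8 ± 23.7 CPM. Neither passed (adjusted p = 0.987 and 0.252). A floxed allele that has lost internal exons can still give a 3′ read, so these counts do not check the deletion. Paneth cell markers, a sign of epithelial RNA, summed to 0.271 to 6.32 CPM in WT IntSC and 38.1 to 112 CPM in KO IntSC, and to 0 to 0.740 CPM in WT LEC and 11.8 to 87.6 CPM in KO LEC. Their part in any genotype difference was not tested. KO LEC 3 had no read for 6 of the 2831 genes that reached 30 CPM in every other LEC library, and Adm was one of them. The corresponding count was 0 to 4 genes in the other LEC libraries and 0 to 1 in the IntSC libraries.

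**Figure D1:**
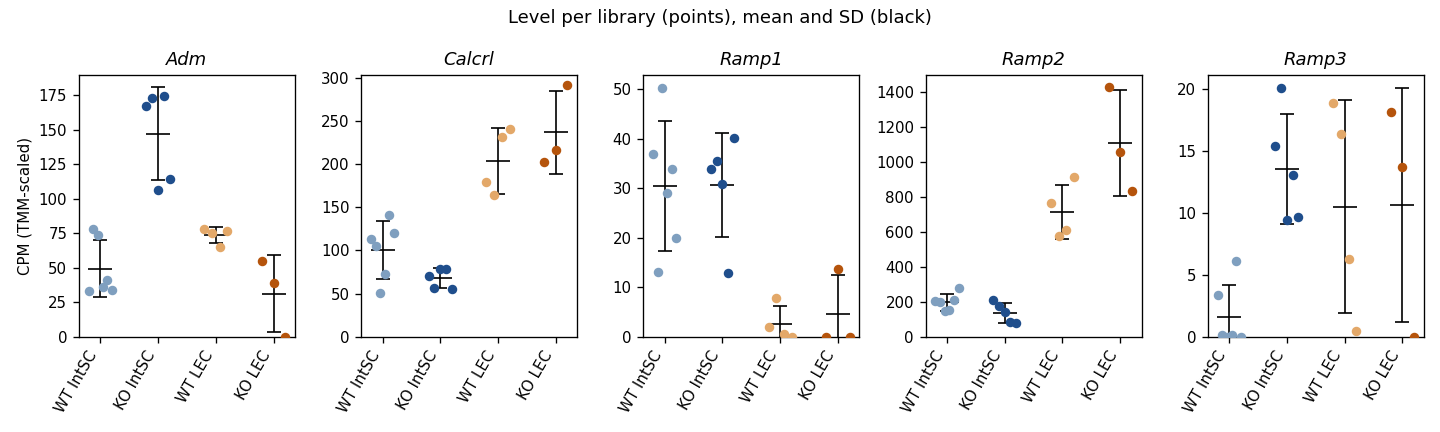
CPM of the 5 genes in each of the 18 libraries (points), with the mean and SD of each group (black), on a separate linear axis for each gene. All 5 KO IntSC libraries lie above the WT IntSC libraries for Adm and Ramp3, and the LEC libraries lie above the IntSC libraries for Calcrl and Ramp2.

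The ligand Adm rose in the stromal cells with LATS1/2 deletion. In WT IntSC the lowest library had 33.2 CPM, the median was 38.7 CPM and the highest library had 77.7 CPM. In KO IntSC the levels were 167, 173, 106, 175 and 114 CPM in libraries 1 to 5. All KO libraries lay above every WT library, which held for 1.19% of the 18119 genes with a read. The difference on the log2 scale was 1.58 ± 0.26 (SE), that is 2.98-fold (edgeR adjusted p = 0.00246), and Adm ranked 37th by p among 12421 genes tested. The direction and the call held without any 1 of the 11 libraries, with log2 fold changes of 1.48 to 1.74. With all 4 groups in 1 fit the difference was 1.57 on the log2 scale with an SE of 0.66 and did not pass (adjusted p = 0.795). For Adm the two-sided exact permutation test gave p = 0.00433, the smallest that 6 against 5 libraries allow. The adjusted p of that test was 0.215, and 0 of 18119 genes passed it. Adm was the only member that passed with edgeR in this comparison, 1 of 5, where 1.47% of all genes tested passed.

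Markers of cell types in the IntSC libraries are set beside Adm. The 5 pan-endothelial markers summed to 67.2 to 167 CPM in WT IntSC and 129 to 310 CPM in KO IntSC, with 0 of the 5 past the threshold and none at 0 in every library. The LEC markers summed to 240 to 430 CPM and 317 to 489 CPM, with 0 of 8 tested past the threshold. The 8 blood endothelial markers went from 1281 to 2788 CPM in WT IntSC to 918 to 1369 CPM in KO IntSC, with 1 of the 8 lower. The 9 stromal markers summed to 11330 to 17229 CPM and 7690 to 12748 CPM, with 2 of the 9 lower, and the 6 pericyte markers summed to 273 to 516 CPM and 251 to 519 CPM, with 1 of the 6 lower. The 6 smooth muscle markers summed to 1037 to 1801 CPM and 1252 to 2336 CPM, with 0 past the threshold. None of these markers was at 0 in every library of a genotype. The part of these shifts in the difference of Adm was not tested. The level of Adm in KO IntSC was 470% of its level in KO LEC, a mean that includes KO LEC 3 at 0 CPM. The LEC markers in KO IntSC stood at 3.55% of theirs, the pan-endothelial markers at 9.24% and the blood endothelial markers at 168%. Of the 8 blood endothelial markers, 2 passed as higher and 4 as lower in KO LEC than in KO IntSC, so that list was mixed. What these levels mean for the source of Adm was not tested. In sorted bulk cells, more cells that express a gene and more RNA per cell cannot be told apart.

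Adm was also read in the lacteal LECs. The WT LEC libraries 1 to 4 had 77.8, 75.3, 64.8 and 76.4 CPM, a spread of 5.92 CPM (SD) around 73.6 CPM. The KO LEC libraries 1 to 3 had 54.6, 39.3 and 0 CPM. The 0 in KO LEC 3 stands for no read among 7392848, which allows up to 0.406 CPM. All 3 KO libraries lay below the 4 WT libraries, as 4.81% of 15057 genes did. The edgeR log2 fold change was -1.17 ± 1.07 and did not pass (adjusted p = 0.9999), and without KO LEC 3 it was -0.58 and did not pass either. The two-sided exact permutation test gave p = 0.0571, the smallest that 4 against 3 libraries allow. None of the 5 genes passed between KO LEC and WT LEC with edgeR, where 0.0658% of genes did. At an unadjusted p under 0.05 there was 1, Ramp2, and DESeq2 and limma-voom called 0.

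In order of mean level, Adm was highest in KO IntSC (147 CPM), followed by WT LEC (73.6 CPM), WT IntSC (49.4 CPM) and KO LEC (31.3 CPM). WT LEC and WT IntSC overlapped and their difference did not pass (log2 fold change 0.58 ± 0.33, adjusted p = 0.249). KO LEC lay wholly below KO IntSC, as 15.6% of 17587 genes did, at a log2 fold change of -2.23 ± 1.07 that did not pass (adjusted p = 0.160). Without KO LEC 3 it was -1.65 and passed (adjusted p = 0.00586). The difference between the genotype effects in IntSCs and LECs was 2.81 ± 1.10 on the log2 scale (adjusted p = 0.213), against a median of 0.24 over all genes tested. Without KO LEC 3 it was 2.22 and passed (adjusted p = 0.0153), so 1 library decided that call.

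Adm lies on mouse chromosome 7 at 110627657 to 110629820 (GRCm38.p6, the mm10 build of the submitters' processing notes, plus strand). It overlaps the annotated gene Gm28863, as Ramp3 overlaps Gm11978, and whether the counting used strand was not given in the sources used here. RefSeq promoter windows were found for 4 of the 5 genes, Ramp2 excepted. The bases before the start of the 2 genes whose KO and WT IntSC libraries did not overlap are printed, chr7:110627407-110627656 for Adm and chr11:6658283-6658505 for Ramp3, both plus strand, 5′ to 3′, with motif matches in capitals.
Adm: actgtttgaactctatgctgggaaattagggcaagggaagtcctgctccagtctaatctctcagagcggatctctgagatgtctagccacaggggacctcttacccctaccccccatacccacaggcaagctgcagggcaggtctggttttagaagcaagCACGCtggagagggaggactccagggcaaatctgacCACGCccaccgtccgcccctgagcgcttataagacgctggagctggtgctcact
Ramp3: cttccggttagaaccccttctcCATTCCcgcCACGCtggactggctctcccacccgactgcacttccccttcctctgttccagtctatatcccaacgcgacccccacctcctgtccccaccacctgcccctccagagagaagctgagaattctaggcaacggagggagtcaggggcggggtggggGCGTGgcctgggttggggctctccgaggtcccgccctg
The motifs searched on both strands were CATTCC, the site of the TEAD factors that YAP and TAZ bind, ACGTG and GCGTG, cores of hypoxia-inducible factor sites, and TGAGTCA, an AP-1 site. The Ramp3 window held 1 CATTCC, a motif found in 14.7% of all 32851 windows of 300 bases, and the Adm, Calcrl and Ramp1 windows held 0. GCGTG or its complement was found 2 times in Adm, 2 times in Ramp3 and 1 time in Calcrl, and in 32.4% of all windows. ACGTG (19.6% of windows) and TGAGTCA (5.20%) had no match in the 4 windows. A match describes these letters and does not show that a factor binds there.

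The receptor Calcrl was higher in LECs than in IntSCs of both genotypes. Calcrl lies on chromosome 2 at 84330626 to 84425405. In WT IntSC it ranged from 50.9 to 141 CPM with a median of 109 CPM, and in WT LEC libraries 1 to 4 it was 180, 164, 231 and 241 CPM. The WT LEC libraries all lay above the WT IntSC libraries, as 7.02% of 16975 genes did, with a log2 difference of 1.03 ± 0.28 (edgeR adjusted p = 0.0138). In the KO IntSC libraries 1 to 5 it was 71.0, 57.1, 78.4, 78.7 and 55.5 CPM, and in the KO LEC libraries 1 to 3 it was 203, 216 and 291 CPM. Here too the LEC libraries all lay above the IntSC libraries, as 8.33% of 17587 genes did, and the log2 fold change was 1.79 ± 0.23 (adjusted p = 3.79e-04). Between genotypes the libraries overlapped in both cell types. The log2 fold change was -0.56 ± 0.25 in IntSCs (adjusted p = 0.440) and 0.29 ± 0.28 in LECs (adjusted p = 0.9999).

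The partner Ramp2 showed the same order of cell types with a wider gap. Ramp2 lies on chromosome 11 at 101246334 to 101248250. WT IntSC ranged from 146 to 280 CPM with a median of 204 CPM, and WT LEC libraries 1 to 4 had 764, 574, 613 and 911 CPM. On the log2 scale Ramp2 was higher in WT LEC by 1.85 ± 0.23 (edgeR adjusted p = 2.01e-05), 3.61-fold. KO IntSC libraries 1 to 5 had 210, 178, 141, 82.8 and 79.7 CPM, and KO LEC libraries 1 to 3 had 1430, 1057 and 835 CPM, a log2 fold change of 3.0 ± 0.34 (adjusted p = 1.63e-04). Every LEC library lay above every IntSC library in both genotypes, as for 7.02% of 16975 genes in WT and 8.33% of 17587 in KO.

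Between genotypes Ramp2 was at -0.52 ± 0.25 on the log2 scale in IntSCs (adjusted p = 0.515), where 3 of the 5 KO libraries lay below every WT library. In LECs it was at 0.70 ± 0.24 (adjusted p = 0.446), where 2 of the 3 KO libraries lay above every WT library. Neither difference passed, and the difference between them was -1.15 ± 0.40 (adjusted p = 0.138 with edgeR and 0.0470 with DESeq2, at -1.27). A GENCODE transcript model of Ramp2 runs into the next gene on the same strand, Vps25, and the annotation used for counting was not given in the sources used here. In the RefSeq positions given here no other gene overlaps Ramp2. Vps25 was at 117 ± 35.4 CPM in WT IntSC, 113 ± 9.36 in KO IntSC, 305 ± 195 in WT LEC and 499 ± 93.9 in KO LEC. How reads were shared between these genes was not tested.

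Ramp1, the CGRP receptor partner, was lower in LECs than in IntSCs of WT mice. Ramp1 lies on chromosome 1 at 91179822 to 91225196. WT IntSC ranged from 13.1 to 50.3 CPM with a median of 31.5 CPM, and WT LEC libraries 1 to 4 had 2.00, 7.77, 0.66 and 0 CPM, all below every IntSC library, as 8.41% of 16975 genes were. The 0 in WT LEC 4 allows up to 0.289 CPM. On the log2 scale the difference was -3.56 ± 1.04 (edgeR adjusted p = 0.0218). The call was lost without WT LEC 3 (adjusted p = 0.0504) and without WT IntSC 3 (adjusted p = 0.0535). In KO IntSC the levels were 33.9, 35.5, 30.8, 13.0 and 40.1 CPM in libraries 1 to 5, and in KO LEC they were 0, 13.7 and 0 CPM in libraries 1 to 3. The single KO LEC library with reads, KO LEC 2, had 133 of them and overlapped the lowest KO IntSC library. The KO difference was -2.73 ± 1.59 and did not pass (adjusted p = 0.258). Without KO LEC 2 it passed (adjusted p = 7.43e-04) at a fitted -10.85, a value that depends on the prior count because both remaining LEC libraries had no read. Between KO IntSC and WT IntSC, Ramp1 was at 0.00 ± 0.37 on the log2 scale.

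In WT cells 3 of the 5 genes, Calcrl, Ramp2 and Ramp1, passed between LECs and IntSCs, where 22.6% of all genes tested passed. In KO cells 2 of the 5, Calcrl and Ramp2, passed, where 25.9% of genes did. The LEC markers in WT IntSC stood at 3.01% of their LEC level, the pan-endothelial markers at 4.13% and the blood endothelial markers at 198%. Calcrl stood at 49.3% and Ramp2 at 27.8%. In KO IntSC these shares were 3.55% for the LEC, 9.24% for the pan-endothelial and 168% for the blood endothelial markers. They were 28.8% for Calcrl and 12.48% for Ramp2. The blood endothelial list was mixed, so its sum does not stand for every marker. Of its 8 markers, 2 passed as higher and 1 as lower in WT LEC than in WT IntSC. Between KO LEC and KO IntSC 2 passed as higher and 4 as lower in LECs. The part of endothelial RNA in the IntSC levels of Calcrl and Ramp2 was not tested. In the other direction the stromal markers in WT LEC stood at 7.24% of their IntSC level and Ramp1 at 8.54%, and in KO LEC at 3.97% and 14.9%.

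**Figure D2:**
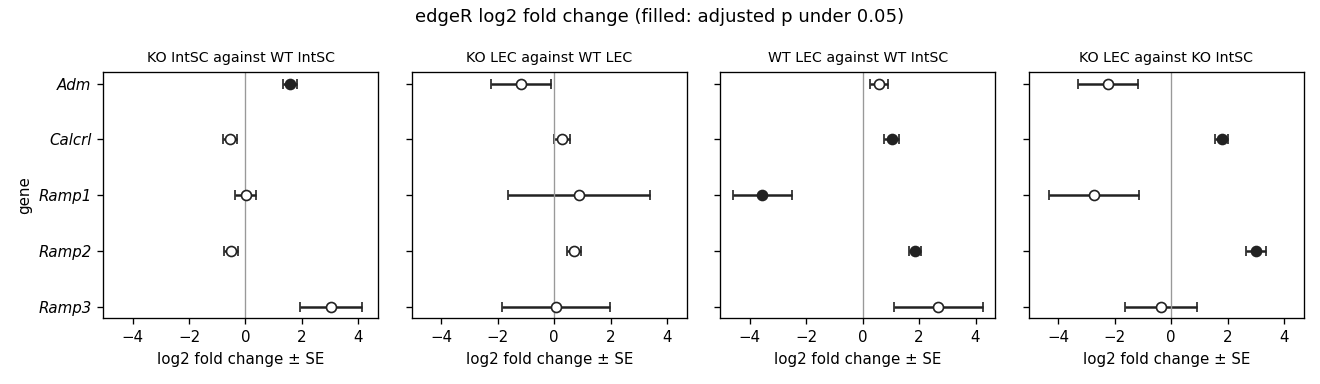
Log2 fold change with SE from edgeR for the 5 genes (rows) in the 4 comparisons (panels), with filled points at an adjusted p under 0.05. Adm is filled for KO IntSC against WT IntSC at 1.58, none is filled for KO LEC against WT LEC, and Calcrl and Ramp2 are filled in both comparisons of cell types.

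Ramp3, the other adrenomedullin receptor partner, was scarce in WT stromal cells and was read in every KO stromal library. Ramp3 lies on chromosome 11 at 6658506 to 6677478. In WT IntSC the lowest library had 0 CPM, the median was 0.17 CPM and the highest was 6.14 CPM, and libraries 3 and 6 had no read. In KO IntSC libraries 1 to 5 had 15.4, 20.1, 9.48, 13.1 and 9.69 CPM, from 73 to 147 reads each. The groups did not overlap, with KO above WT as for 1.19% of the 18119 genes with a read. The edgeR log2 fold change was 3.03 ± 1.10 and did not pass (adjusted p = 0.256), nor did DESeq2 (adjusted p = 0.0708), while limma-voom gave 4.73 (adjusted p = 0.0359). The two-sided exact permutation test gave p = 0.00433, the smallest that 6 against 5 libraries allow, and an adjusted p of 0.215 over all genes.

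In LECs Ramp3 varied more within a genotype than between them. WT LEC libraries 1 to 4 had 18.9, 16.4, 6.28 and 0.50 CPM, and KO LEC libraries 1 to 3 had 18.1, 13.7 and 0 CPM. The genotype difference was 0.07 ± 1.91 on the log2 scale (edgeR adjusted p = 0.9999). Against WT IntSC, WT LEC stood at 2.68 ± 1.58 (adjusted p = 0.270), with 3 of the 4 LEC libraries above every IntSC library. Against KO IntSC, KO LEC stood at -0.35 ± 1.27 (adjusted p = 0.891), and at 0.23 without KO LEC 3. In KO IntSC (13.6 ± 4.43 CPM) Ramp3 stood beside WT LEC (10.5 ± 8.64 CPM) and KO LEC (10.6 ± 9.46 CPM), and above WT IntSC (1.64 ± 2.56 CPM). The ranges of mean ± SD overlap for the first 3 groups. That of WT IntSC overlaps those of both LEC groups but not that of KO IntSC.

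The makeup of the RAMPs was described by the share of each gene in the summed Ramp1, Ramp2 and Ramp3 reads of a library. In LECs Ramp2 took nearly all of these reads, with a median share of 98.1% in WT LEC (96.0% to 99.9%) and 98.7% in KO LEC (97.5% to 100%). In WT IntSC its median share was 83.9% (74.4% to 93.8%), with 14.3% for Ramp1 and 0.087% for Ramp3. In KO IntSC the median shares were 76.2% for Ramp2 (61.5% to 81.0%), 15.2% for Ramp1 (11.9% to 31.0%) and 7.49% for Ramp3 (5.24% to 12.1%). The Ramp3 share of every KO IntSC library was above that of every WT IntSC library, where the highest was 2.47%. KO IntSC 5 had the lowest Ramp2 share and the highest Ramp1 share of its group.

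**Figure D3:**
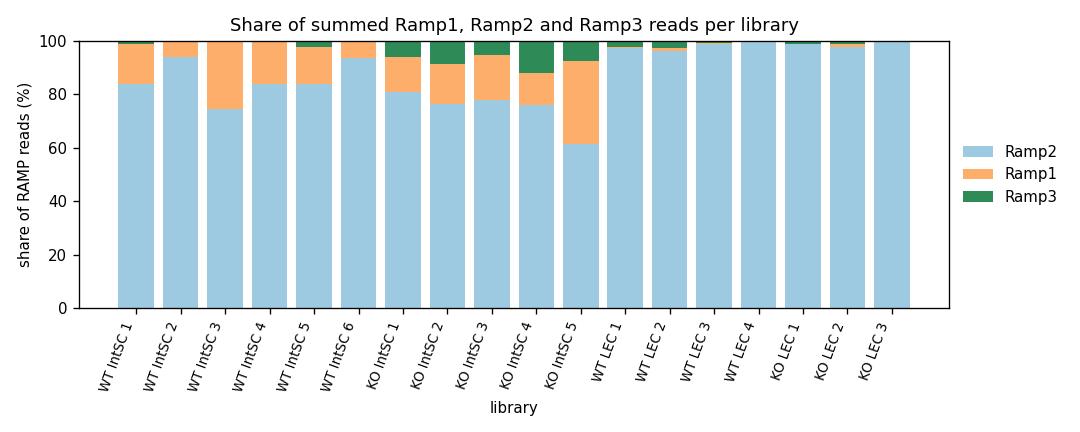
Share of the summed Ramp1, Ramp2 and Ramp3 reads (%, stacked to 100) taken by each gene in the 18 libraries. Ramp3 is visible in all 5 KO IntSC bars, at 5.24% to 12.1%, and Ramp2 fills at least 96.0% of every LEC bar.

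No member passed the test of the difference between the genotype effects in IntSCs and LECs with edgeR, where 1.70% of 14015 genes did. At an unadjusted p under 0.05 there were 2, Adm and Ramp2. DESeq2 called 1 of the 5, Ramp2, and limma-voom called 1, Adm. For Calcrl the difference was -0.78 ± 0.39 (adjusted p = 0.336) and for Ramp3 it was 3.01 ± 2.16 (adjusted p = 0.585).

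Among 64 other genes of the pathway in 6 lists, 57 were tested between KO IntSC and WT IntSC, of which 3 rose and 1 fell, where 1.47% of all genes tested passed. Ackr3, a receptor that takes up adrenomedullin and the chemokine CXCL12 without G protein signalling, rose from 31.0 ± 9.02 to 72.8 ± 21.4 CPM. Its libraries ranged from 22.5 to 41.2 CPM in WT IntSC and from 49.0 to 97.2 CPM in KO IntSC. They did not overlap, with KO above WT as for 1.19% of the 18119 genes with a read. On the log2 scale the rise was 1.24 ± 0.27 (edgeR adjusted p = 0.0229). The call was lost without KO IntSC 1, KO IntSC 3 or KO IntSC 4 (adjusted p = 0.0532, 0.0879 and 0.0625). In LECs Ackr3 was at 491 ± 112 CPM in WT and 348 ± 75.1 CPM in KO, a log2 fold change of -0.42 (adjusted p = 0.874). The difference between the genotype effects of Ackr3 passed, at 1.73 ± 0.39 (edgeR adjusted p = 0.0201), but not with limma-voom (1.71, adjusted p = 0.0825).

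Of 28 genes of the stimulatory G protein and cyclic AMP relay tested in IntSCs, 1 rose and 1 fell. Of all genes tested there, 1.47% passed. Rapgef3, which encodes the cyclic AMP-activated exchange factor EPAC1, went from 43.4 ± 17.5 up to 107 ± 40.5 CPM, a log2 difference of 1.30 ± 0.32 (edgeR adjusted p = 0.0479). Prkar2b, a regulatory subunit of protein kinase A, fell from 56.2 ± 12.45 to 25.7 ± 6.80 CPM (log2 fold change -1.13 ± 0.28, adjusted p = 0.0444). Each of these calls held in only 1 of 11 fits that left out 1 library, without WT IntSC 3 for Rapgef3 and without WT IntSC 4 for Prkar2b. The median log2 fold change of the relay genes was -0.02, beside 0.00 over all genes tested.

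Adm is a known target of hypoxia-inducible factors. Of 15 other hypoxia-induced genes 1 rose in KO IntSC, where 1.47% of all genes tested passed. Ndrg1, a gene induced by hypoxia and stress, went from 31.5 ± 7.36 up to 69.3 ± 11.7 CPM, a log2 difference of 1.14 ± 0.25 (edgeR adjusted p = 0.0197). Its call was lost without KO IntSC 2 (adjusted p = 0.0772) and without KO IntSC 3 (adjusted p = 0.0553). The median of the 15 genes was 0.18 on the log2 scale, beside 0.00 over all genes tested. A part of hypoxia in the rise of Adm was not tested. None of 5 peptide processing genes and none of 6 endothelial junction genes passed with edgeR in IntSCs, with 1 and 2 of them at an unadjusted p under 0.05 and 0 called by DESeq2 or limma-voom.

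**Figure D4:**
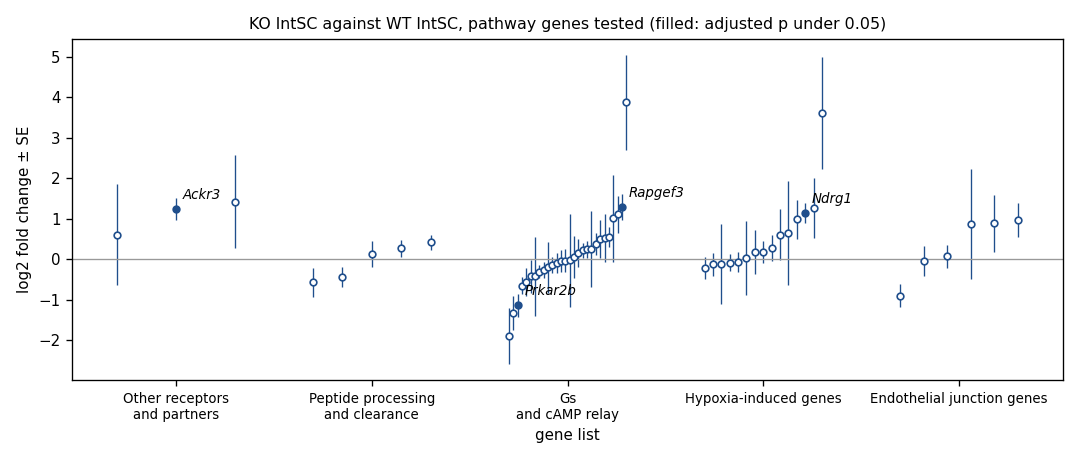
Log2 fold change with SE from edgeR between KO IntSC and WT IntSC for the 57 pathway genes tested (points), by gene list, with filled and named points at an adjusted p under 0.05. Ackr3, Rapgef3 and Ndrg1 lie at 1.24, 1.30 and 1.14, and Prkar2b lies at -1.13.

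Between KO LEC and WT LEC 0 of 43 pathway genes tested passed with edgeR, where 0.0658% of all genes did, 6 had an unadjusted p under 0.05, DESeq2 called 1 and limma-voom called 0. The cell types differed more. Of 54 pathway genes tested between WT LEC and WT IntSC, 13 were higher and 11 were lower in LECs. Of all 12203 genes tested there, 22.6% passed, 1260 of them higher and 1503 lower. Among the receptors, Gpr182, an endothelial receptor that binds chemokines, was at 673 ± 65.2 CPM in WT LEC and 1.92 ± 1.60 CPM in WT IntSC (log2 fold change 8.43 ± 0.58, edgeR adjusted p = 1.43e-07). Ackr3 was higher in LECs by 3.99 ± 0.27 (adjusted p = 5.41e-08). Ece1, a peptidase of the cell surface, was higher by 2.76 ± 0.22 (adjusted p = 2.79e-07), and Pam, the enzyme that amidates adrenomedullin and other peptide hormones, was lower by 1.17 in LECs, from 102 ± 29.7 CPM in WT IntSC to 45.1 ± 24.3 CPM in WT LEC (adjusted p = 0.0404). The call of Pam held in only 2 of 10 fits that left out 1 library, without WT LEC 4 and without WT IntSC 5, with an adjusted p of up to 0.0932 in the others and log2 fold changes of -1.52 to -0.93 over the 10.

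The relay genes split between the WT cell types, with 4 higher and 8 lower in LECs of 27 tested. In this comparison 22.6% of all genes tested passed. Gnas, the α subunit of the stimulatory G protein, was at 823 ± 384 CPM in WT LEC and 227 ± 47.5 CPM in WT IntSC. The adenylyl cyclase Adcy4 was at 78.9 ± 13.4 and 11.7 ± 6.72 CPM. The cyclases Adcy2 and Adcy3 had their reads in stromal cells, at 14.2 ± 4.30 and 17.5 ± 5.13 CPM in WT IntSC, with Adcy2 at 0 in every WT LEC library. Of 5 endothelial junction genes tested, 4 were higher in LECs, among them Cldn5 (1278 ± 237 and 12.3 ± 4.19 CPM), a tight junction protein, and Cdh5 (235 ± 68.6 and 10.5 ± 11.4 CPM), which encodes VE-cadherin. Between KO LEC and KO IntSC 10 pathway genes were higher and 18 were lower in LECs of 59 tested. Of all 12758 genes tested there, 25.9% passed, 1162 of them higher and 2140 lower. Gpr182 stood at 8.07 ± 0.79, Ackr3 at 2.25 ± 0.28 and Pam at -1.88 ± 0.44 (adjusted p = 5.30e-05, 2.63e-04 and 0.0104).

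The other ligands of the family were rare or without reads. Adm2 and Iapp had 0 reads in all 18 libraries, which allows up to 0.560 CPM in the smallest library. Calca, the gene of calcitonin and αCGRP, had reads in 4 of the 18 libraries and at most 6.17 CPM. Calcb, the gene of βCGRP, had 0 reads in the 6 WT IntSC libraries and 139 reads over the 5 KO IntSC libraries, at 0.36 to 6.71 CPM. The groups did not overlap, with KO above WT as for 1.19% of the 18119 genes with a read. Calcb was named after its values were seen, and 0 genes passed the exact permutation test in IntSCs after adjustment. Calcr, the calcitonin receptor, reached at most 5.03 CPM, in a KO LEC library. None of these genes had enough reads for the edgeR test in IntSCs.

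The genes whose profile over the 18 libraries was most like each member were found by the root mean square difference of log2(CPM + 1) values centred on each gene's mean, over 14014 genes. For Adm they were Rhebl1 (0.59), Trim47 (0.62) and Cbx7 (0.64), against a median of 1.86 for all genes. For Calcrl they were Chmp3 (0.35), Add3 (0.36) and Glod4 (0.37), and for Ramp2 they were Kctd12 (0.33), Homer3 (0.43) and Rmnd5b (0.45). Ramp1 was nearest to Fnbp4 (0.72), Srgap1 (0.77) and Entpd1 (0.79). Ramp3, with the fewest reads, was nearest to Rnf113a1 (0.96), Prdx4 (1.12) and Prepl (1.19), against a median of 2.02. Mean levels of Rhebl1 were 51.4, 92.2, 52.1 and 35.0 CPM in WT IntSC, KO IntSC, WT LEC and KO LEC.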

How the data were processed

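RNA of 18 libraries (Lexogen QuantSeq 3′, Illumina NextSeq) was analysed. For each library the authors deposited raw counts, whole reads per gene symbol without normalisation. The study's methods name TopHat and Cufflinks and the submitters' processing notes name Bowtie2, edgeR and the build mm10. The counting program and annotation were not given in the sources used here. IntSCs were sorted as tdTomato+ cells after depletion of CD45, CD326 and CD31, and LECs by CD31 and podoplanin. Their purity was not given. Counts of symbols on several rows were summed.

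Groups came from the sample titles. The test was edgeR 4.0.16 under R 4.3.3 (TMM, filterByExpr, robust quasi-likelihood fit, Benjamini-Hochberg over all genes, adjusted p under 0.05) on the 2 groups compared, and on all 4 groups for the difference between genotype effects, coded as IntSC minus LEC. SEs were derived from the F statistic. Two-sided exact permutation tests used log2(CPM + 1). Alternatives were DESeq2 1.42.0, limma-voom 3.58.1, RLE and upper-quartile factors, no count filter beyond 1 read, the replicate number as a block, all 4 groups in 1 fit, leaving out Rn45s (7.02% to 24.4% of reads), and leaving out each library. Total counts were 5361250 to 10549233, so 3 reads are 0.284 to 0.560 CPM.

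The members and gene lists were chosen with earlier results of these data known. Named were the members, Lats1 and Lats2, at most 5 genes per pathway list and comparison with the smallest adjusted p, and the 3 genes most like each member. The calcitonin family ligands, Calcr and Vps25 were named after their values were seen. On simulated counts edgeR recovered 90.0% of 200 genes changed by 2 on the log2 scale among 11793 in the IntSC comparison, and 26.5% among 10118 in the LEC comparison. The changed genes were drawn only from the more highly read genes. The recovery does not cover genes with few reads, such as Ramp3. Promoters and positions are from RefSeq (GRCm38.p6).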

Additional observations from a re-analysis of the deposited data

Results flagged for a closer look

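In KO IntSC 5 the Ramp1 share of RAMP reads was 30.97%, with the next KO IntSC library at 17.04%, a gap of 0.731 of the group's range. In the same library the Ramp2 share was 61.5%, with the nearest library at 76.0%, a gap of 0.746 of the range. Both passed Dixon's 95% limit for a single outlying sample in a group of 5. The shares of a library sum to 100%, so these are not separate observations, and over the 24 groups of values examined chance gives about 1.2 such gaps.

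The genotype effect differed between IntSCs and LECs for Ackr3, by 1.73 on the log2 scale (edgeR adjusted p = 0.0201). With limma-voom the difference was 1.71 and did not pass (adjusted p = 0.0825). Ackr3 was above every WT IntSC library in all 5 KO IntSC libraries, as were 1.19% of 18119 genes. The same test passed for Prkar2a, a regulatory subunit of protein kinase A, by a fitted 9.33 (adjusted p = 7.06e-04). Prkar2a was at 33.9 ± 10.4 CPM in WT IntSC, 23.1 ± 8.21 CPM in KO IntSC, 15.2 ± 9.58 CPM in WT LEC and 0 in the 3 KO LEC libraries, and the fitted size depends on the prior count.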

How the results depend on the processing

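Over the alternatives other than leaving out 1 library, 185 of 204 values of the members kept their direction and their side of the threshold. The rise of Adm in KO IntSC passed in 7 of 8 and was lost with all 4 groups in 1 fit (1.57). That fit also ended the IntSC calls of Rapgef3 (1.30) and Prkar2b (-1.13), and upper-quartile factors that of Rapgef3 (1.29, adjusted p = 0.0510). limma-voom added calls for Ramp3 between KO IntSC and WT IntSC (4.73), for Adm (-4.77) and Ramp1 (-6.21) between KO LEC and KO IntSC, and for Adm in the difference of genotype effects (5.40), and DESeq2 added Ramp2 there (-1.27). With all 4 groups in 1 fit Ramp1 lost its call between WT LEC and WT IntSC (-3.55). With WT LEC 1 and KO LEC 3 both left out, chosen after seeing the data, Adm passed in the difference of genotype effects (2.19) and 468 genes did. The cause of these changes was not tested.

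Some values of Ramp1 and Ramp3 changed sign, from as far as 0.88 for Ramp1 in LECs and -0.82 for its difference of genotype effects. Ramp1 in IntSCs was -0.0046 with limma-voom and -0.0057 without the count filter. In LECs Ramp1 was -0.97 with limma-voom, and Ramp3 was -1.06 with limma-voom and -0.0071 with upper-quartile factors. The Ramp1 difference of genotype effects was 1.14 with limma-voom.

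Deviations of same-numbered libraries from their group means had correlations of -0.07 to 0.06. Between WT LEC and WT IntSC the 4 pairs had 0.017 to 0.033, against a mean of -0.005 for the other pairs. With so few pairs this cannot decide whether the numbers pair samples. With the replicate number as a block Adm passed in IntSCs (1.55, adjusted p = 0.0170). Ramp1 was -0.071 in IntSCs, -3.58 in LECs and 2.00 in the difference of genotype effects, Ramp3 was -1.57 in LECs, and Ramp1 between WT LEC and WT IntSC was -4.97 and no longer passed (adjusted p = 0.0751). The block also ended calls in IntSCs of Ackr3 (adjusted p = 0.0977), Ndrg1 (0.0949) and Prkar2b (0.103), of Ackr3 in the difference of genotype effects (0.242), of Prkar2a in that difference (0.184), and of Pam between the WT (0.0771) and KO (0.0843) cell types. With the block 3 genes passed between KO LEC and WT LEC, 1596 between the WT and 895 between the KO cell types, and 16 in the difference of genotype effects.

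The genes passing in IntSCs numbered 183, 376 with DESeq2 and 27 with all 4 groups in 1 fit. In LECs they numbered 7, 309 with DESeq2, 12 with limma-voom, 32 without the count filter and 538 with all 4 groups in 1 fit. In the difference of genotype effects they numbered 238, 1023 with DESeq2 and 143 with limma-voom. Other factors moved the median of all genes from -0.04 to -0.15 between the WT cell types and from 0.24 to 0.13 in the difference of genotype effects.

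Leaving out 1 library gave 99 to 186 genes in IntSCs, 0 to 16 in LECs, 2233 to 2889 and 2557 to 3320 between the WT and KO cell types, and 161 to 461 in the difference of genotype effects. The log2 values for Ramp1 ranged from -0.16 to 0.21 in IntSCs, -7.56 to 1.47 in LECs, -5.10 to -3.14 and -10.85 to -2.14 between the WT and KO cell types, and -2.35 to 7.32 in the difference. Those for Ramp3 ranged from -0.53 to 0.66 in LECs and -0.98 to 0.23 between the KO cell types. Those for Adm ranged from -2.89 to -1.65 between the KO cell types and from 2.22 to 3.48 in the difference. The LEC groups limit what can be seen, since 4 against 3 libraries allow no exact p under 0.0571. The simulated recovery of the more highly read genes was 26.5%.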
